A study of Mus musculus with 20 samples.

Results

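Hippocampal mRNA was compared between mice carrying a sponge for miR-124 and mice carrying a sponge for miR-125. The comparison rests on 6 of the 20 libraries of the series, chosen by their labels: GFP.miR124sp mice 14, 2 and 9 and GFP.miR125sp mice 24, 6 and 9. All were adult C57BL/6 mice given an AAV5 vector in the hippocampus, and each library holds the mRNA of 1 mouse. In the vector the synapsin promoter, which is active in neurons, drives GFP with the sponge behind it. No control mouse enters this comparison. Each sponge was injected in an experiment of its own, with its own 3 mice given AAV5 with GFP alone under the same promoter. Sponge and experiment therefore cannot be told apart within the 6 mice, and the same contrast in the 6 GFP mice is given beside most results. RNA was extracted from hippocampal tissue, although the labels name hippocampal neurons. Glial transcripts were abundant, as shown by Gfap, the intermediate filament of astrocytes, at 340, 391 and 409 CPM (counts scaled to the size of the library) in the miR124sp mice and 298, 292 and 313 CPM in the miR125sp mice.

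MicroRNAs guide Argonaute proteins to mRNAs that pair with bases 2 to 8 of the miRNA, the seed, and paired mRNAs are repressed or degraded. A sponge is a transcript with many such sites, which occupies the miRNA and relieves its targets. miR-124 is abundant in neurons, whereas the miR-125 family is found in neurons and in glia. With one sponge set against the other, targets of miR-124 would be looked for among the genes higher in miR124sp mice and targets of miR-125 among the genes higher in miR125sp mice. Neither the mature miRNAs nor the vector transcripts are measured by these counts, so the inhibition itself has no check here.

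The miR-125 members share the seed shown in capitals below and their first 13 bases. The sequences are those of RefSeq on GRCm38.p6, where miR-125b-5p is encoded on the plus strand at chr9:41581940-41581961 (Mir125b-1) and chr16:77646279-77646300 (Mir125b-2), and miR-125a-5p on the plus strand at chr17:17830817-17830840 (Mir125a).
mmu-miR-125b-5p: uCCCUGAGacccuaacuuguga
mmu-miR-125a-5p: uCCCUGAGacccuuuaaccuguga

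A match to the miR-125 seed in a 3′UTR reads CTCAGGG on the sense strand and a match to the miR-124 seed reads GTGCCTT. The longest 3′UTR of 18710 annotated genes was searched, and the miR-124 match occurred in 12.6% and the miR-125 match in 13.0% of them. The sites below are those of the genes that differed between the sponges and held most matches for either miRNA. They lie in the 3′UTRs of Vamp3 (ENSMUST00000030797, chromosome 4, minus strand), which encodes a vesicle SNARE, of Sspn (ENSMUST00000111702, chromosome 6, plus strand), which encodes a protein of the dystrophin complex, and of Mobp (ENSMUST00000093773, chromosome 9, plus strand), which encodes a myelin protein. Coordinates are on NCBIM37 (mm9), and capitals mark the match. The first 2 matches of Sspn adjoin, so that their windows overlap.
Vamp3, chr4:150422974-150423002: gcctagaaaatGTGCCTTtgtttttcata
Vamp3, chr4:150422909-150422937: cattttgcacaGTGCCTTtacagatttct
Vamp3, chr4:150422661-150422689: aatagcagggtGTGCCTTattttgatagc
Sspn, chr6:145912689-145912717: gaacggtgactGTGCCTTgtgccttccaa
Sspn, chr6:145912696-145912724: gactgtgccttGTGCCTTccaaactgtag
Sspn, chr6:145913042-145913070: ttctcttctgaGTGCCTTccagtgtgttc
Mobp, chr9:120082551-120082579: gtgctccagagCTCAGGGaacgggtcttt
Mobp, chr9:120082613-120082641: gtgcacgcttcCTCAGGGtctttggcaaa
Mobp, chr9:120084396-120084424: aggaaaccaggCTCAGGGcctgactcagt
Mobp, chr9:120084643-120084671: ccaatgtcaaaCTCAGGGactccatgcac

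The 6 libraries held 13064658 to 21159193 counts, and the 6 GFP libraries 6950522 to 27833176 counts. One mouse of the miR124sp group stood apart from its group. The chi-square per degree of freedom of gene counts was 4.74 between mice 14 and 2. It was 17.6 between mice 14 and 9 and 13.2 between mice 2 and 9. Within the miR125sp group it was 4.98 to 6.71. By this measure, which rises with the counts of the libraries, such a spread was not limited to sponge mice. In GFP mice of the miR-124 experiment it was 20.4 between mice 15 and 20. There it was 20.7 between mice 20 and 8 and 9.53 between mice 15 and 8. GFP mice of the miR-125 experiment, 2 of them with the fewest counts, had 3.49 to 5.49. The Pearson r of log2 counts set only mouse 9 of the miR124sp group apart. It was 0.984 with mouse 14 and 0.986 with mouse 2, and 0.990 to 0.994 in all other pairs within the groups. The summed level of genes of the cortex and thalamus around the hippocampus moved with the split of miR124sp mouse 9 from mice 14 and 2. Over 11 measured genes it was 1056 CPM in mouse 14 and 1069 CPM in mouse 2, but 553 CPM in mouse 9, against 608 to 646 CPM in the miR125sp mice. Much of this difference came from a single gene, Tshz2. Markers of CA3 pyramidal cells did the opposite, with 278 and 352 CPM in mice 14 and 2, 596 CPM in mouse 9 and 528 to 572 CPM in the miR125sp mice over 10 measured genes. The header of the libraries gives a further division, a mark that the sources used here do not explain. Among the 6 sponge libraries it is absent from miR124sp mice 2 and 9 and present in the other 4. Among the GFP libraries it is absent from mice 14 and 15 of the miR-125 experiment, with 7190513 and 6950522 counts. It is present in mouse 4 of that experiment and in GFP mice 15, 20 and 8 of the miR-124 experiment. The part of the mark and of depth in the contrast of GFP mice was not tested.

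Of 12605 genes tested, 229 (1.82%) passed an adjusted p of 0.05 in edgeR's quasi-likelihood test. Of these, 103 (0.817% of all genes tested) were higher in miR125sp mice and the others (1.00%) in miR124sp mice. The differences were mostly small: the median absolute log2 fold change of the 229 genes was 0.50, 95 genes differed by 1.5-fold or more, and 36 by 2-fold or more. For each of the 229 genes the 3 miR124sp mice lay entirely on one side of the 3 miR125sp mice, as did 26.1% of all genes tested. The count depended on single mice. Without miR124sp mouse 14, miR125sp mouse 6 or miR125sp mouse 9 the count was 0 in edgeR, with 1785, 1759 and 1692 genes at an unadjusted p below 0.05 and with 240, 220 and 181 genes called by DESeq2. Without miR124sp mouse 2 the count was 1, the immediate early gene Fos, with 377 genes in DESeq2. It was 116 without miR125sp mouse 24 and 1882 without miR124sp mouse 9. The 229 genes kept their direction in all 6 of these fits. Since the groups did not overlap for any of them, leaving out 1 mouse could hardly change it, so this adds no support.

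The GFP mice of the experiments differed in more genes than the sponge mice did. Among 13084 genes tested, 4022 (30.7%) passed the threshold between GFP mice of the miR-124 and of the miR-125 experiment, 1914 (14.6%) higher in the miR-124 experiment and 2108 (16.1%) lower. Of the 229 genes, 228 were tested there: 174 had the same direction as in the sponge mice, 94 of them past the threshold, and 14 passed it in the opposite direction. Over 12550 genes the log2 fold changes of sponge mice and of GFP mice had a Pearson r of 0.24, across genes that are not independent replicates. A fit over all 12 mice asked whether each sponge effect against its own GFP mice differed between the sponges. It called 1921 of 13268 genes (14.5%), 984 (7.42%) with the greater effect on the miR-124 side and 937 (7.06%) with the lower, and 82 of the 1921 were among the 229. For 73 of these 82 the difference of effects had the direction of the difference between the sponge mice. This fit uses the same sponge mice and is not a second test of them.

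**Figure D1:**
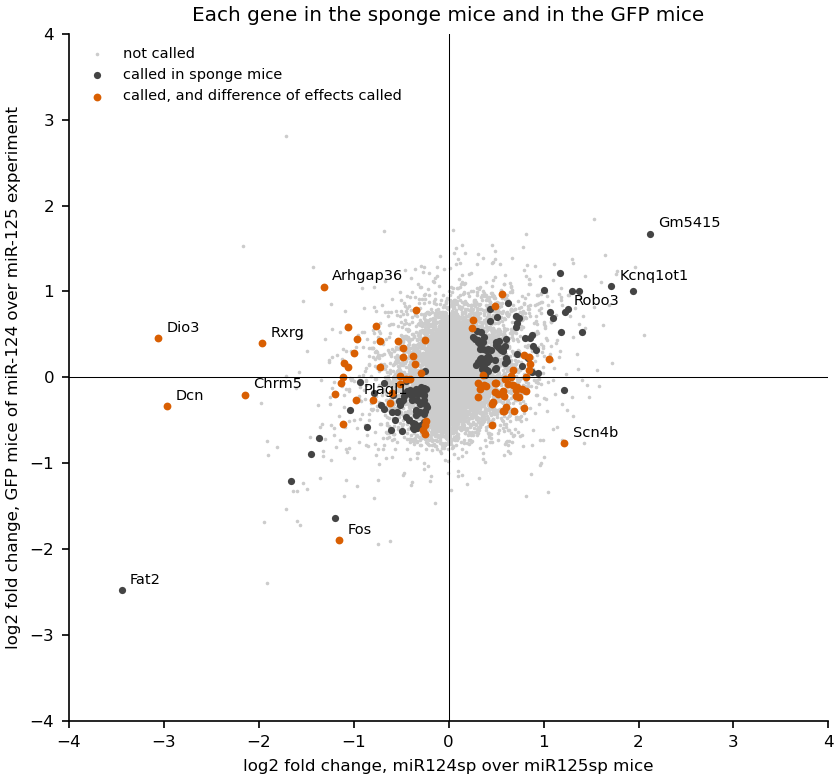
Log2 fold change of each gene between miR124sp and miR125sp mice (horizontal) and between the GFP mice of the same experiments (vertical), with 1 point per gene and called genes in dark grey or, where the difference of effects also passed, orange. Fat2 and Gm5415 lie far from zero on both axes, whereas Dio3, Dcn and Rxrg lie far from zero only on the horizontal axis.

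Among the 10 genes of largest difference higher in miR124sp mice were long noncoding RNAs retained in the nucleus. Malat1, a noncoding RNA of nuclear speckles, stood at 1671, 1050 and 1412 CPM in miR124sp mice 14, 2 and 9, and at 736, 437 and 512 CPM in miR125sp mice 24, 6 and 9. The groups did not overlap, and the log2 fold change was 1.30 ± 0.21 (SE, n = 3 and 3, adjusted p = 0.0332). Malat1 was also higher in the GFP mice of the miR-124 experiment, at 1248 to 2157 CPM against 769 to 887 CPM, a log2 fold change of 1.01 (adjusted p = 0.000775). Neat1, the scaffold of paraspeckles, was measured at 286, 169 and 181 CPM in miR124sp mice and 88.9 ± 12.2 CPM (SD, n = 3) in miR125sp mice, with a log2 fold change of 1.26 ± 0.19. Kcnq1ot1, an imprinted antisense RNA that silences neighbouring genes, was 3.27-fold higher, at 76.5, 43.6 and 63.0 CPM against 24.3, 13.9 and 17.4 CPM. Each of these 3 RNAs was higher in the GFP mice of the miR-124 experiment as well, with log2 fold changes of 0.79 for Neat1 and 1.07 for Kcnq1ot1, and none passed the test of a difference between the sponge effects (adjusted p of 0.27 to 0.55).

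The other 7 of these genes were Gm5415, Coro6, 1700047M11Rik, A330049N07Rik, Robo3, Scn4b and Slc35d3. Gm5415, a predicted gene, had the largest difference of the 10, with 3.86, 2.94 and 1.91 CPM against 0.973, 0.296 and 0.642 CPM a 4.35-fold difference (adjusted p = 0.0417). Coro6, an actin-binding coronin counted over 3 RefSeq transcripts, followed at 1.94 ± 0.37 (adjusted p = 0.0441). Robo3, a receptor that steers commissural axons, was measured at 33.0, 25.1 and 26.7 CPM in miR124sp mice and at 14.2, 10.6 and 11.3 CPM in miR125sp mice, a log2 fold change of 1.23 ± 0.14 (adjusted p = 0.0151). Gm5415, Robo3 and A330049N07Rik were also higher in the GFP mice of the miR-124 experiment, with log2 fold changes of 1.67, 0.77 and 1.00. Coro6 (1.00, adjusted p = 0.051) and 1700047M11Rik (0.52, adjusted p = 0.071) had values in the same direction there, and Slc35d3 had -0.15.

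Scn4b differed from these genes in its GFP mice. This beta subunit of voltage-gated sodium channels stood at 141, 121 and 72.4 CPM in miR124sp mice and 54.7, 46.8 and 42.4 CPM in miR125sp mice, a log2 fold change of 1.22 ± 0.22 (adjusted p = 0.0389). In the GFP mice the order was turned, with 22.7, 26.6 and 25.0 CPM in the miR-124 experiment and 51.1, 41.6 and 34.8 CPM in the miR-125 experiment. The sponge effects differed by 1.98 on the log2 scale (adjusted p = 0.00131). Within the miR124sp group Scn4b was highest in mice 14 and 2, the mice with more RNA of the neighbouring-tissue genes, whose part in the result was not tested.

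Among the genes higher in miR125sp mice, Fat2, an atypical cadherin, had the largest difference. It was near the limit of detection in miR124sp mice, at 0.178, 0.0699 and 0.381 CPM, and at 2.82, 2.59 and 1.50 CPM in miR125sp mice, a log2 fold change of -3.44 ± 0.47 (adjusted p = 0.0233). The GFP mice of the miR-124 experiment also had less Fat2, at 0.140 to 1.26 CPM against 2.20 to 3.91 CPM. Tmem267 (2 RefSeq transcripts), Gm15446 and Vgll3, a cofactor of TEAD transcription factors, showed the same pattern, with log2 fold changes of -1.66, -1.44 and -1.37 in the sponge mice and of -1.21, -0.89 and -0.70 in the GFP mice.

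Another set was lower in the miR124sp mice than in the miR125sp mice and in the GFP mice of both experiments. Dio3, the deiodinase that inactivates thyroid hormone, was at 0.534, 1.40 and 2.06 CPM in miR124sp mice and at 7.44, 12.8 and 12.4 CPM in miR125sp mice, whereas both groups of GFP mice lay between 5.86 and 12.5 CPM. Dio3 had a log2 fold change of -3.06 ± 0.38 (adjusted p = 0.0154) in the sponge mice and 0.46 (adjusted p = 0.15) in the GFP mice, and the sponge effects differed by -3.51 (adjusted p = 0.00108). Dcn, the matrix proteoglycan decorin counted over 2 RefSeq transcripts, was at 0.237, 0.489 and 0.915 CPM against 3.21, 3.04 and 6.15 CPM, with all GFP mice between 2.62 and 4.20 CPM. Chrm5, the M5 muscarinic acetylcholine receptor, was 4.43-fold higher in miR125sp mice, at 3.45, 6.23 and 6.90 CPM against 0.949, 0.979 and 1.83 CPM. Rxrg, a retinoid X receptor counted over 2 transcripts, was at 0.415, 0.350 and 0.762 CPM in miR124sp mice, and each of the other 9 mice had at least 0.870 CPM. Nr2f2, a nuclear receptor that marks subsets of interneurons and vascular cells, was at 5.58, 7.27 and 9.38 CPM against 14.2, 18.4 and 18.1 CPM, with all GFP mice between 13.6 and 19.5 CPM. Arhgap36, of a family of GTPase-activating proteins, completed the 10, with a log2 fold change of -1.31 ± 0.24 (adjusted p = 0.0395) and GFP values from 1.26 to 7.58 CPM, which overlapped the 0.949 to 1.33 CPM of the miR124sp mice. For Dio3, Dcn, Chrm5, Rxrg and Nr2f2 the level in miR124sp mouse 9, which had the least RNA of the neighbouring-tissue genes, was the highest of the 3.

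**Figure D2:**
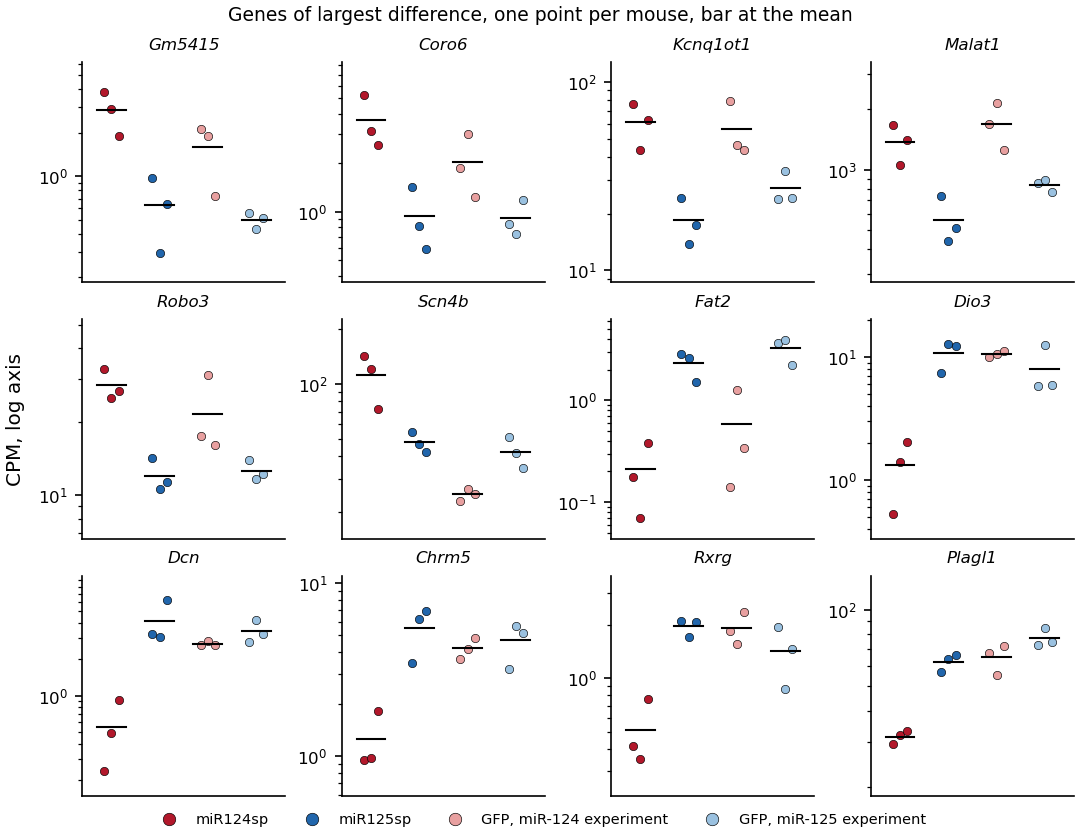
CPM of 12 genes on logarithmic axes, with 1 point per mouse and a bar at the mean of each group. Malat1, Kcnq1ot1 and Fat2 differ between the experiments in sponge and in GFP mice, whereas Dio3, Dcn, Chrm5, Rxrg and Plagl1 are low in the miR124sp mice alone.

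Genes of oligodendrocytes and myelin formed the list with most calls. Of 15 measured genes, 12 were higher in miR124sp mice, none was lower, and the median log2 fold change was 0.78 against 0.00 over all genes tested. Of all genes tested, 1.00% were higher in miR124sp mice and 0.817% lower, shares that apply to each list below as well. Cldn11, a tight-junction protein of the myelin sheath, was at 326, 283 and 244 CPM in miR124sp mice and at 185, 147 and 154 CPM in miR125sp mice, a 1.76-fold difference (log2 fold change 0.81 ± 0.12, adjusted p = 0.0256). Ugt8a, which makes the myelin lipid galactosylceramide, was at 144, 130 and 117 CPM against 93.0, 78.4 and 81.7 CPM (1.54-fold). Opalin, a membrane protein of mature oligodendrocytes, was at 53.1, 40.1 and 43.0 CPM against 28.7, 21.1 and 23.7 CPM (1.85-fold). In these 3 genes every miR124sp mouse lay above every miR125sp mouse, with mouse 14 the highest. The myelin proteins Mag and Mog differed by 0.81 ± 0.14 and 0.86 ± 0.14 on the log2 scale, and the lineage transcription factors Olig1 and Olig2 by 0.34 ± 0.05 and 0.40 ± 0.07.

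The 3 genes of the list that did not pass were Sox10, the transcription factor of the lineage, at 0.60 ± 0.12 (adjusted p = 0.0546), Tspan2, at 0.31 ± 0.47, and Mbp, the myelin basic protein, at -0.09 ± 0.07. Mbp is counted over 8 RefSeq transcripts. No source used here says how reads shared between transcripts were assigned, so levels of such genes are uncertain. Summed over the list, miR124sp mice had 1895, 1617 and 1469 CPM and miR125sp mice 1189, 1008 and 1026 CPM.

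In the GFP mice the same list had a median log2 fold change of 0.03. There 3 of 15 genes were higher in the miR-124 experiment, against 14.6% of all genes tested. These were Mobp, Olig1 and Gjc3, of which the last encodes a glial connexin. The difference between the sponge effects passed the threshold for 9 of the 15, all positive, against 7.42% of all genes tested. No myelin gene was called without miR124sp mouse 14, without miR124sp mouse 2 or without miR125sp mice 6 or 9, whereas the median stayed between 0.65 and 0.86 when each mouse was left out. In bulk tissue, fewer cells of a type and less RNA per cell cannot be told apart. The genes of neighbouring cortex and thalamus had a median of 0.64, with 0 of 11 called and only 7 of 11 above zero. Of these, Tshz2 was at 428, 440 and 137 CPM and Slc17a6, a vesicular glutamate transporter of subcortical neurons, at 109, 116 and 40.6 CPM in miR124sp mice 14, 2 and 9, against 145 to 180 and 40.7 to 52.0 CPM in miR125sp mice. The part of these genes in the myelin result was not tested.

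**Figure D3:**
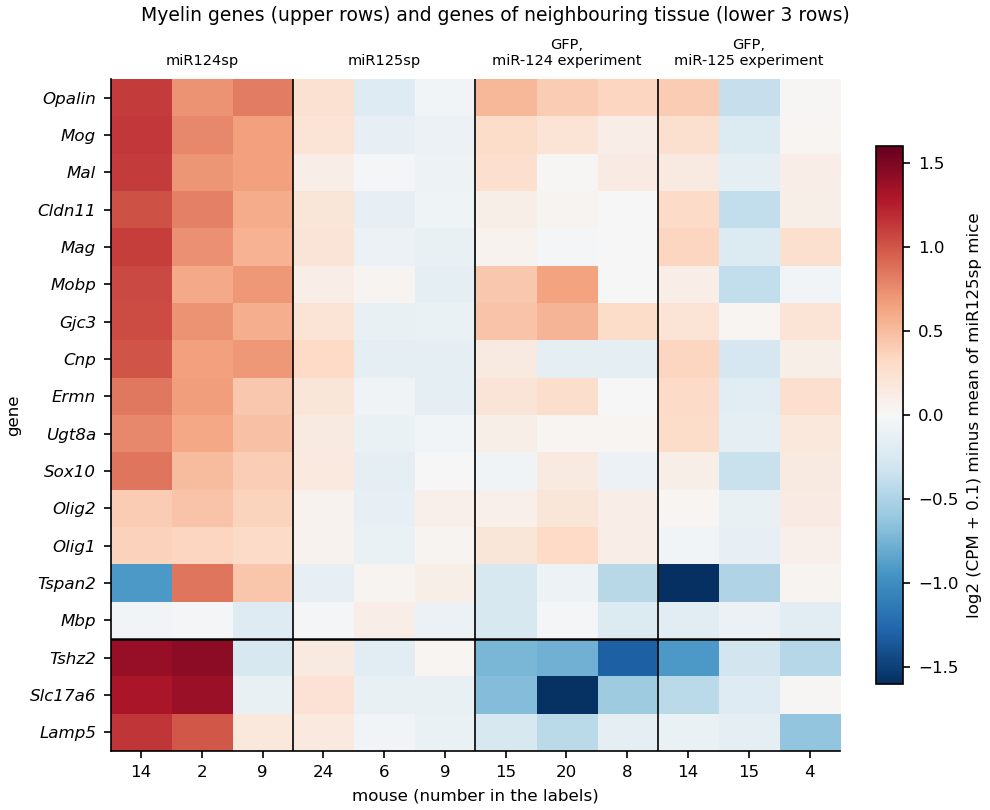
Each cell gives log2(CPM + 0.1) of a gene in a mouse minus the mean of the miR125sp mice, for 15 myelin genes and, below the line, for Tshz2, Slc17a6 and Lamp5 of neighbouring tissue. Most myelin genes are raised in all 3 miR124sp mice, whereas Tshz2 and Slc17a6 are raised in mice 14 and 2 and not in mouse 9, and Lamp5 is raised most in mice 14 and 2 (149 and 135 CPM, with 76.4 CPM in mouse 9).

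Other lists of cell types held fewer calls, to be set beside 1.00% of all genes tested higher in miR124sp mice and 0.817% lower. Astrocyte markers had a median of 0.12 with 1 of 12 higher, Aldh1l1, a folate enzyme (0.31 ± 0.06), which was also higher in the GFP mice of the miR-124 experiment (0.44). Microglial and complement genes had a median of 0.11 and endothelial and mural markers of 0.05, with none called among 15 and 12. Neuron markers had a median of -0.04, with 7 of 22 above zero. Of these markers 1 was called higher, Grin1, the obligatory NMDA receptor subunit counted over 3 transcripts (0.31 ± 0.06). Another 1 was called lower, Gap43, a protein of growing axons (-0.37 ± 0.07). CA1 markers had a median of -0.06, with 5 of 12 above zero and 2 called lower in miR124sp mice, Fibcd1 and Dcn. Their sums overlapped, at 1402 to 1804 CPM in miR124sp mice and 1697 to 1836 CPM in miR125sp mice. Fibcd1, a CA1 membrane receptor, was at 169, 167 and 167 CPM against 241, 266 and 266 CPM, a log2 fold change of -0.62 ± 0.05 (adjusted p = 0.00755). Interneuron markers had a median of -0.07, with 6 of 16 above zero and 1 called lower. This was Nos1, the neuronal nitric oxide synthase, at 55.2, 54.4 and 68.5 CPM against 102, 108 and 114 CPM. Fibcd1 and Nos1 were also lower in the GFP mice of the miR-124 experiment, by -0.30 and -0.58.

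CA3 markers had a median of -0.46, with 0 of 10 called and 0 of 10 above zero, but their summed level in miR124sp mouse 9 lay above all miR125sp mice. Dentate granule cell markers had a median of 0.09 with 0 of 13 called. Meningeal and fibroblast genes had a median of -0.99 with only Dcn called among 12, and their sums overlapped between the groups, at 79.5 to 138 CPM against 102 to 317 CPM. In the GFP mice 8 of these 12 were lower in the miR-124 experiment (median -0.81), against 16.1% of all genes tested.

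Immediate early genes, which neuronal activity induces, leaned towards the miR125sp mice. Of 24 measured, 3 were lower in miR124sp mice, against 0.817% of all genes tested, and none was higher, with a median of -0.35. Fos was at 11.5, 18.0 and 12.7 CPM against 29.0, 34.2 and 30.8 CPM, a 2.22-fold difference (log2 fold change -1.15 ± 0.15, adjusted p = 0.0228). Egr2 and Egr4, zinc-finger transcription factors, differed by -1.19 ± 0.21 and -0.49 ± 0.10. The same list was lower in the GFP mice of the miR-124 experiment, with a median of -0.57. In those mice 17 of 24 were called lower, against 16.1% of all genes tested. There Fos stood at 8.09 to 9.26 CPM against 27.0 to 36.7 CPM. The sponge effects on Fos differed in the other direction, by 0.74 (adjusted p = 0.0390). Nr4a1, an orphan nuclear receptor of this class with 1 miR-124 match, was at 81.1, 94.9 and 74.9 CPM in miR124sp mice and 88.6, 117 and 81.7 CPM in miR125sp mice. These values overlapped (log2 fold change -0.19 ± 0.13, adjusted p = 0.472). Its GFP mice differed, at 37.5 to 51.2 CPM against 78.2 to 123 CPM, and the sponge effects by 0.96 (adjusted p = 0.0162).

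Genes that the literature lists as targets of miR-124 had 2 of 34 measured genes higher in miR124sp mice and none lower, with a median of 0.12. Of all genes tested, 1.00% were higher. Litaf, a lysosomal membrane protein, was at 44.3, 40.3 and 33.6 CPM against 27.8, 23.9 and 23.3 CPM (log2 fold change 0.66 ± 0.11, adjusted p = 0.0387), and its GFP mice overlapped (0.01). Its longest 3′UTR held no miR-124 match. Vamp3, with its 3 matches, was at 44.6, 45.4 and 44.2 CPM against 37.1, 35.7 and 35.7 CPM, a 1.24-fold difference (0.31 ± 0.06, adjusted p = 0.0413). Vamp3 was higher by 0.41 in the GFP mice of the miR-124 experiment as well, and the sponge effects on it did not pass (-0.10, adjusted p = 0.62). Rhog, a small GTPase with 2 matches, reached 0.60 ± 0.12 (adjusted p = 0.0526).

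Literature targets of miR-125 had 1 of 31 lower in miR124sp mice, against 0.817% of all genes tested, none higher, and a median of -0.02. The single gene was Plagl1, an imprinted zinc-finger regulator of growth, at 29.5, 32.1 and 33.1 CPM in miR124sp mice and 56.9, 63.9 and 66.2 CPM in miR125sp mice. Its difference of 1.97-fold (log2 fold change -0.98 ± 0.08) shared the smallest adjusted p of the comparison with Fibcd1 (0.00755). In GFP mice Plagl1 lay at 55.5 to 71.7 CPM in the miR-124 experiment and 72.6 to 85.1 CPM in the miR-125 experiment, so that the miR124sp mice were below all other 9 mice. The sponge effects differed by -0.72 (adjusted p = 0.00425). The longest annotated 3′UTR of Plagl1 held no miR-125 match. Erbb3, a neuregulin receptor on the same list, was higher in value in miR124sp mice (0.70 ± 0.16, adjusted p = 0.0716).

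The whole set of genes with seed matches showed small shifts. Of 11670 tested genes with a 3′UTR, 1310 had a miR-124 match only, with a median log2 fold change of 0.019. In this class 18 genes (1.37%) were higher and 8 (0.611%) lower in miR124sp mice, against 1.00% and 0.817% of all genes tested. The 1322 genes with a miR-125 match only had a median of 0.00088, with 12 (0.908%) higher and 11 (0.832%) lower. The 8613 genes with neither match had a median of -0.0073, with 77 (0.894%) higher and 73 (0.848%) lower. The difference between the medians of the first 2 classes was 0.018. A related but different quantity, the gap between their median log2 levels in single mice, had an SD of 0.017 within groups. That SD is not the error of the 0.018, which was not tested. By length of the 3′UTR, the median of the miR-124 class was 0.086 up to 714 bases (162 genes), 0.026 up to 1804 bases (438 genes) and 0.00096 beyond (710 genes). That of the miR-125 class was 0.00095 (155 genes), 0.017 (428 genes) and -0.0092 (739 genes), and that of genes with neither match was 0.0055, -0.0098 and -0.023. In the GFP mice, which carry no sponge, the miR-124 class of the shortest 3′UTRs had a median of 0.11 and the genes with neither match 0.15. For the middle and longest 3′UTRs these GFP medians were -0.0036 and -0.071 for the miR-124 class. They were -0.0046 and -0.11 for the genes with neither match. Called genes with most miR-124 matches were, besides Vamp3, Sspn (3 matches, 0.37 ± 0.07), Carhsp1, an RNA-binding protein (2 matches, 0.50 ± 0.07), Daam2, a formin of Wnt signalling (2 matches, 0.50 ± 0.08), and Ildr2 (2 matches, -0.39 ± 0.06). The GFP mice differed in the same directions, by 0.47 for Sspn, 0.37 for Carhsp1, 0.42 for Daam2 and -0.27 for Ildr2, each past the threshold, and the difference of effects passed for none of the 4. Those with most miR-125 matches were Mobp (4 matches, 0.80 ± 0.13), Scn4b (2 matches), Dot1l, a histone methyltransferase (2 matches, 0.53 ± 0.11), Msi1, an RNA-binding protein (2 matches, 0.36 ± 0.07), and Opcml, a neuronal adhesion molecule (2 matches, -0.24 ± 0.05). Of these 5, only Opcml was higher in miR125sp mice. Scn4b and Dot1l also held 1 miR-124 match each, and Ildr2 also held 1 miR-125 match. Between the GFP mice Dot1l differed by 0.34, Msi1 by 0.33, Mobp by 0.46 and Opcml by -0.55, all past the threshold in the direction of the sponge mice.

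**Figure D4:**
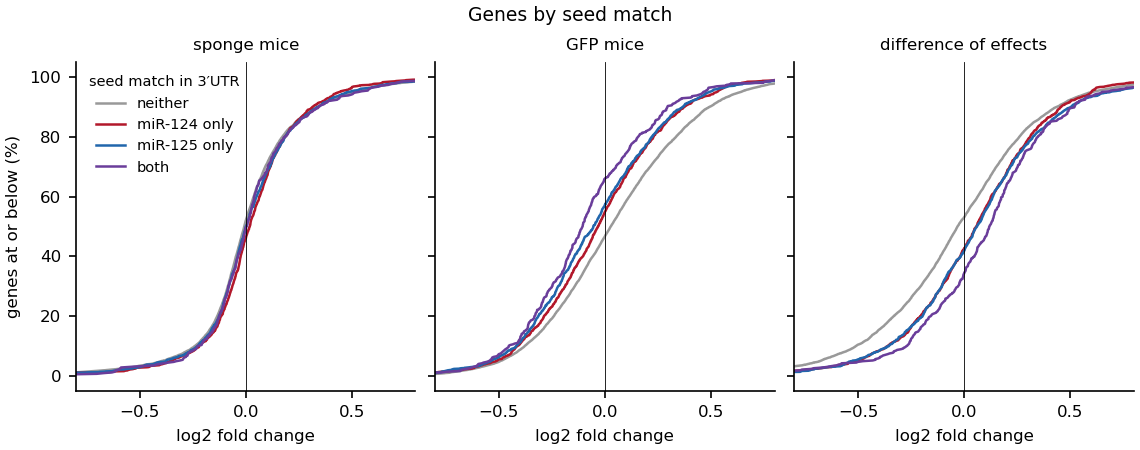
Cumulative share of genes by log2 fold change in the sponge mice, in the GFP mice and for the difference of sponge effects, with 1 curve for each class of seed match. In the sponge mice the 4 curves lie within a few hundredths of each other at their medians (-0.0073 to 0.019). In the GFP mice the classes with matches lie to the left of the genes with neither match. The curves are not split by length of the 3′UTR. Among the longest 3′UTRs the GFP medians were -0.071 for miR-124 only, -0.13 for miR-125 only, -0.12 for both and -0.11 for neither.

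Lists of neuronal function held few calls, beside 1.00% of all genes tested higher in miR124sp mice and 0.817% lower. Of 49 axon guidance genes, 1 was higher, Robo3, and 3 were lower, namely the netrin receptor Unc5d (-0.47 ± 0.07), the semaphorin receptor Plxnc1 (-0.59 ± 0.09) and the semaphorin Sema3e (-0.42 ± 0.08). Of 31 glutamate and GABA receptor genes, Grin1 was higher and the GABA-A subunit Gabra2 lower (-0.44 ± 0.08). Of 39 voltage-gated channel genes, Scn4b was higher and the potassium channel Kcnd3, counted over 2 transcripts, lower (-0.36 ± 0.05). Between the GFP mice, 16.1% of all genes tested were lower in the miR-124 experiment. So were 22 of the 49 guidance genes, 11 of the 31 receptor genes and 25 of the 39 channel genes. Kcnd3 (-0.54) and Sema3e (-0.50) were among them, whereas Unc5d (-0.22), Plxnc1 (-0.20) and Gabra2 (-0.16) did not pass there. No gene was called among 33 of synaptic vesicle release, 18 of miRNA biogenesis and silencing or 13 of the Bcl-2 family, whose medians were 0.01, -0.00 and -0.00. Of 6 measured host transcripts of the miRNAs, Spaca6, which lies at the miR-125a locus, was higher (0.74 ± 0.14, adjusted p = 0.0433), and Mir124a-1hg reached 0.65 ± 0.17 (adjusted p = 0.0856). Both were higher in the GFP mice of the miR-124 experiment, by 0.69 and 0.78.

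Response lists were also sparse. The complement gene C4b, from the reactive gliosis list (1 of 10 called), was at 120, 108 and 108 CPM against 66.8, 64.1 and 78.1 CPM, a 1.61-fold difference (0.69 ± 0.08, adjusted p = 0.0154). In the GFP mice C4b was lower in the miR-124 experiment (-0.40), and the sponge effects differed by 1.08 (adjusted p = 0.00274). C4b has a close copy, C4a, and reads of such pairs may be split. Dbp, an output gene of the circadian clock, was higher (0.71 ± 0.11) as 1 of 13 clock genes, and by 0.59 in the GFP mice. Hsph1, a heat shock protein, was the only one of 14 hypoxia and heat shock genes to be called (-0.29 ± 0.05), and was at -0.56 in the GFP mice. Interferon and antigen presentation genes had a median of 0.24 with 0 of 18 called. Nor was any gene called on the lists of the choroid plexus, the glucocorticoid response, blood cells, sex-linked genes, cholesterol synthesis or the unfolded protein response.

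Ribosomal protein genes and nuclear genes of oxidative phosphorylation separated the GFP mice but not the sponge mice. Of 67 ribosomal protein genes none was called between the sponges (median 0.0031), whereas 66 were higher in the GFP mice of the miR-124 experiment (median 0.60). Of 68 oxidative phosphorylation genes, 1 was called between the sponges, Atp5l (-0.25 ± 0.04). In the GFP mice of the miR-124 experiment 56 were higher (median 0.45). Of all genes tested, 14.6% were higher there. Among the 5 smallest p values for the difference of sponge effects were those of Uqcr10, Ndufa4, Gcsh and Fry. These genes differed between the sponges by -0.18 to 0.01 on the log2 scale, and between the GFP mice by 0.48 to 0.68 or, for Fry, by -0.76. Ndufa4, of the respiratory chain, was for example at 229, 221 and 237 CPM against 241, 235 and 246 CPM in sponge mice, and at 359, 385 and 325 CPM against 224, 210 and 226 CPM in GFP mice.

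**Figure D5:**
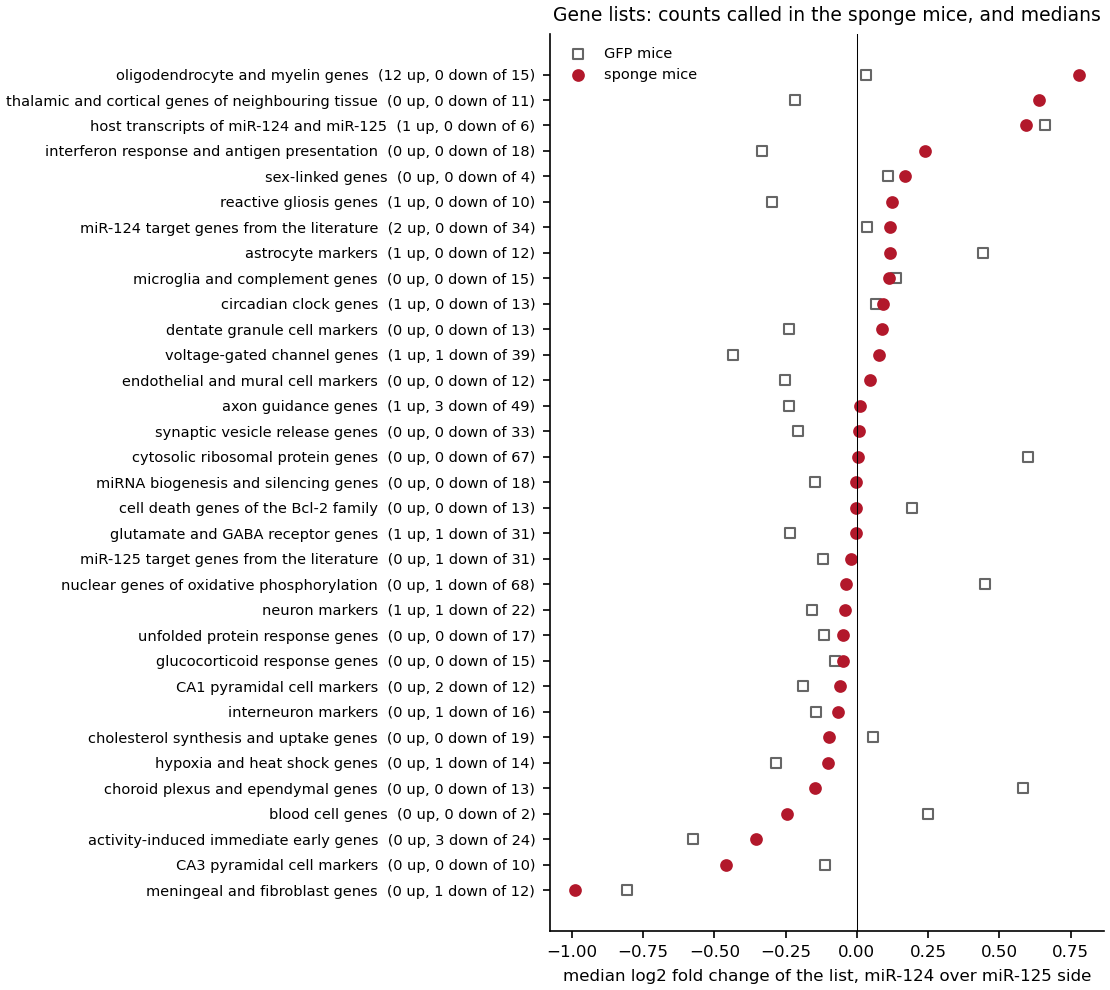
Median log2 fold change of each of 33 gene lists in sponge mice (filled) and in GFP mice (open), with the counts of genes called between the sponges beside each name. Myelin genes lie furthest right in the sponge mice and near zero in the GFP mice, whereas ribosomal genes lie near zero in the sponge mice and at 0.60 in the GFP mice.

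AGO2 binding was measured in other mice, as RNA precipitated with GFP-AGO2 in 2 libraries for each sponge, each from pooled hippocampi. Of 8203 3′UTRs tested between AGO2.miR124sp and AGO2.miR125sp, 1 (0.0122%) passed the threshold, Ttr, the transthyretin gene of the choroid plexus (-3.32 ± 0.46, adjusted p = 0.00956), and 430 had an unadjusted p below 0.05. Of the 229 genes, 127 had a measured 3′UTR and none was called. Vamp3 had a log2 difference of 0.01 ± 0.31 (SE) in AGO2 binding, Litaf of -0.52 ± 0.50 and Mobp of -0.15 ± 0.35. Their adjusted p in the quasi-likelihood test was 0.954 to 0.999.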

How the data were processed

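The authors sequenced poly-A enriched hippocampal RNA of single mice as 50 bp single-end reads and deposited raw counts per RefSeq transcript, and for the AGO2 precipitates counts per 3′UTR. The submitters' notes name STAR, edgeR and mm10, the paper mm9, and no source used here names the counting program. Counts were summed per symbol over 32850 rows (98.7% with a symbol), and rows without a symbol, at most 0.954% of counts, were left out. The tables held 0 columns of other samples. Differences were tested with edgeR 4.0.16 (quasi-likelihood, TMM, filterByExpr, Benjamini-Hochberg adjustment, threshold 0.05) on the 6 sponge mice, and with the same settings on the 6 GFP mice and on all 12. Precipitates needed 10 counts in each of the 8 libraries. CPM values are scaled by TMM over the 12 libraries. DESeq2 1.42.0 was an alternative. The main fit was also run on simulated counts, which held no mouse that stood apart and so do not bear on the dependence on single mice. No libraries were merged, since all replicate pairs differed by more than counting noise, and nothing says whether mice shared litters. Counting error is small at these depths for genes with many counts, whose precision is limited by 3 mice a group. It is not small for several genes of largest difference. Mean counts a library were 21.7 for Fat2, 21.2 for Rxrg, 28 for Gm5415 and 40.8 for Dcn.

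Seed matches were sought in GENCODE M1 3′UTRs on NCBIM37. The genes named were the 10 of largest difference in each direction among called genes with a mean of at least 20 counts a library and no overlap between groups, up to 3 of smallest p per list, Nr4a1, Gapdh (not among the genes tested), host transcripts, the 5 of smallest p for the difference of effects (1 is not reported here), and the called genes with most matches. Others (Mag, Mog, Olig1, Olig2, Gjc3, Sox10, Tspan2, Mbp, Sema3e, Tshz2, Slc17a6, Ttr and those of the closing observations) were added after their values were seen. The comparison and the lists were chosen with earlier results of these data known.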

Additional observations from a re-analysis of the deposited data

Results flagged for a closer look

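The effects of the sponges against their own GFP mice differed by an interaction test for 1921 genes. Values below are the effect of miR124sp minus that of miR125sp on the log2 scale, all with an adjusted p below the threshold in the fit over 12 mice. Because a difference of effects also contains the difference between the GFP mice, it can be large where the values of the sponge mice were close.

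Genes of the miR125sp side with negative values were Dio3 (-3.51), Dcn (-2.63), Arhgap36 (-2.39), Rxrg (-2.37), Chrm5 (-1.96), Nr2f2 (-1.01), Plagl1 (-0.72), Gap43 (-0.62) and Fibcd1 (-0.32). Scn4b had a value of 1.98, Slc17a6 of 1.73 and Tshz2 of 1.43, and the last 2 were high in miR124sp mice 14 and 2 only. Myelin genes with such a difference were Mag (0.96), Cldn11 (0.81), Ugt8a (0.71), Mog (0.69) and Sox10 (0.60). Among literature targets and gliosis genes, Litaf differed by 0.65, Rhog by 0.56, Erbb3 by 0.93 and C4b by 1.08. Grin1 differed by 0.37.

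For another set the GFP mice differed at least as much as the sponge mice. Fos differed by 0.74, Nr4a1 by 0.96 and Opcml by 0.31, against the direction of the sponge mice. Atp5l (-0.68), Uqcr10 (-0.69), Ndufa4 (-0.75), Gcsh (-0.66) and Fry (0.76) had small differences between the sponge mice.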

How the results depend on the processing

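The groups were compared without pairing, because the miR124sp mice (14, 2, 9) and the miR125sp mice (24, 6, 9) were different animals of separate experiments. The number 9 in both groups does not mark a pair. The 229 genes became 228 with DESeq2 size factors, 241 with upper-quartile scaling, 230 with at least 10 counts in every mouse and 188 with single-transcript genes. They became 626 with DESeq2, 476 with no filter on low counts, 411 in 1 fit over 12 mice, 385 with the header mark as a covariate and 1663 with marked libraries only, where miR124sp mouse 14 stands alone and is assumed to vary as the miR125sp mice do. The difference of effects against own GFP mice gave 1921. Leaving out 1 mouse gave 0 to 1882 genes with edgeR and 181 to 1557 with DESeq2, which was chosen after seeing the data (377 without miR124sp mouse 2, 492 without miR125sp mouse 24, 1557 without miR124sp mouse 9). Over the same 6 fits the genes called in any list (36) ranged from 0 to 172, myelin genes (12) from 0 to 13 and immediate early genes (3) from 0 to 7. In each case miR124sp mouse 9 gave the highest count when left out. The cause was not tested.

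The difference between the medians of the miR-124 and miR-125 classes was 0.018, ranged from 0.0042 to 0.025 without single mice, and was -0.0037 for the difference of effects. The 4022 genes of the GFP mice ranged from 2423 (without mouse 15 of the miR-124 experiment) to 4115, with 2625 without mouse 4 of the miR-125 experiment. The 1921 genes ranged from 1144 (without miR125sp mouse 9) to 2935 (without miR124sp mouse 9), with 1159 without GFP mouse 15 of the miR-124 experiment, and 1153 and 1245 without miR124sp mice 2 and 14. DESeq2 size factors moved their share of higher calls, from 984 higher and 937 lower to 1119 and 840, and DESeq2 to 1296 and 886.

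Of 68 named genes, none of those past the threshold changed direction except for the difference of effects, in which Vamp3 was at -0.10, Fos at 0.74, Egr2 at 0.46, Egr4 at 0.13, Nr4a1 at 0.96, Aldh1l1 at -0.13, Sema3e at 0.078, Kcnd3 at 0.18, Hsph1 at 0.27, Sspn at -0.095 and Opcml at 0.31. Nr4a1, not past the threshold between the sponges, is included here because its difference of effects was. None of 42 named genes was called in the AGO2 libraries with TMM or with scaling to genes around Gapdh.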

Other observations

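Further genes of the 229 that no list held are named here after their values were seen. Higher in miR124sp mice, with GFP mice that did not pass the threshold, were Ahnak, a large scaffold protein counted over 4 transcripts (0.49 ± 0.05 on the log2 scale, GFP mice -0.06), and Tln1, talin, which links integrins to actin (0.38 ± 0.05, GFP mice -0.08). Ahnak was at 120, 122 and 114 CPM in miR124sp mice and at 85.2, 83.6 and 85.2 CPM in miR125sp mice. Serpinb1a, a protease inhibitor, was higher by 1.06, against 0.22 in the GFP mice. C4a, the close copy of C4b, was at 44.3, 43.0 and 42.5 CPM against 27.5, 28.8 and 30.9 CPM.

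Some genes that have copies differed between the experiments in both kinds of mice. Dynlt1b, a dynein light chain, was at 22.2, 22.7 and 22.8 CPM in miR124sp mice and 15.8, 15.5 and 14.8 CPM in miR125sp mice, and at 31.0 to 35.2 CPM against 15.6 to 17.7 CPM in the GFP mice. Its copy Dynlt1a went the same way, as did Tmem181b-ps and Tmem181c-ps, which are named as pseudogenes of another gene, Tmem181. Their log2 fold changes were 0.48, 0.63 and 0.50 in sponge mice and 0.83, 0.87 and 0.70 in GFP mice. Reads of close copies may be split, so single values are uncertain.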
